A study of Mus musculus with 12 samples.

Results

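The EAG, ERG and ELK potassium channels form the Kcnh family, and 7 of its genes, Kcnh1, Kcnh2, Kcnh3, Kcnh4, Kcnh5, Kcnh7 and Kcnh8, were followed through the hippocampus and the cerebellum of mice lacking or carrying Syt14. The members were found by matching these symbols to the Ensembl identifiers of the count tables, which gave 7 of 54446 genes. The choice names genes and no measured value, but the family was put forward with results of these data known, so levels and tissue differences are given as a description and the p-values describe the members without supporting anything beyond them. The study sequenced poly(A) RNA from 3 mice labelled Syt14-/- (SYT14 knockout) and 3 labelled wild type (Syt14+/+), and each animal gave both tissues. This makes 12 libraries in 4 groups of 3: knockout hippocampus, wild-type hippocampus, knockout cerebellum and wild-type cerebellum. No group carried a drug or another allele according to the labels. The labels name no age, sex or strain, no founder line, and no exon or domain of Syt14 that was altered. The study's stated interest was mood disorder for the hippocampus and motor coordination for the cerebellum.

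Kcnh channels are voltage-gated potassium channels built as tetramers of alpha subunits, each with a PAS domain at the amino end and a domain related to cyclic nucleotide binding domains at the carboxyl end. The EAG branch (Kcnh1 and Kcnh5) opens slowly on depolarization and is shut by calcium-bound calmodulin. The ERG branch (Kcnh2, Kcnh6 and Kcnh7) inactivates faster than it opens and carries current as the membrane repolarizes, which in the heart ends the action potential and in neurons damps repeated firing. The ELK branch (Kcnh3, Kcnh4 and Kcnh8) opens near the resting potential, and Kcnh3 in particular is known as a forebrain channel that restrains hippocampal pyramidal cells.

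Of the members, 6 have a window in the RefSeq promoter table for GRCm38.p6, of which 4 are printed because their genes span the tissue patterns below: 1.23-fold higher in the cerebellum in wild type (Kcnh1), higher there by more in both genotypes (Kcnh2) and higher in the hippocampus (Kcnh5 and Kcnh7). Each line gives the 250 bases before the start site, 5′ to 3′ on the gene's own strand. Capitals mark GGGCGG or its reverse complement CCGCCC, the core of the GC box bound by Sp factors.
Kcnh1, chr1:192190527-192190776, plus strand: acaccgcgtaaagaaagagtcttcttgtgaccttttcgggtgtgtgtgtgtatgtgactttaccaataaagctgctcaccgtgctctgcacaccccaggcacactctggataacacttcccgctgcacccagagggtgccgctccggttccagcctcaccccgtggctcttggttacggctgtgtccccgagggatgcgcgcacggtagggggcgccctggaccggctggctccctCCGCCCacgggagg
Kcnh2, chr5:24329592-24329841, minus strand: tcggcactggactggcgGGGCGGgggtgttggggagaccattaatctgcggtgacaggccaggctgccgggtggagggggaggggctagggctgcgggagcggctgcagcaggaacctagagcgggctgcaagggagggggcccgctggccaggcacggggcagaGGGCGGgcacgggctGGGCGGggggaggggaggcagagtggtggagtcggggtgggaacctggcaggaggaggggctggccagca
Kcnh5, chr12:75177333-75177582, minus strand: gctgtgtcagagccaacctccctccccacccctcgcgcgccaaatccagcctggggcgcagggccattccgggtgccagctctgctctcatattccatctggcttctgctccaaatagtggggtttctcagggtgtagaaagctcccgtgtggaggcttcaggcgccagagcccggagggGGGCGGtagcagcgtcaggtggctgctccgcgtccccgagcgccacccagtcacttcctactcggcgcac
Kcnh7, chr2:63184288-63184537, minus strand: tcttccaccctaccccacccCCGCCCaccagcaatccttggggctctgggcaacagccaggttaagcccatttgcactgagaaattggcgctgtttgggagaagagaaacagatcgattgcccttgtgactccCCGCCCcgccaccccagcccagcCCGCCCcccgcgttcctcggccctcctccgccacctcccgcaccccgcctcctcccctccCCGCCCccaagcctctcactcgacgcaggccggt

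All 6 windows held at least 1 GC box, which 32.7% of 32851 windows of the same length do. Kcnh7 had 4 GC boxes, Kcnh2 had 3, and Kcnh1 and Kcnh5 had 1 each. Their GC content was 62.0% for Kcnh1, 73.6% for Kcnh2, 65.6% for Kcnh5 and 67.6% for Kcnh7, against a median of 52.4% over all windows. The E-box CANNTG, searched on both strands, occurred at 2 places in the Kcnh5 window, at 1 in the Kcnh7 window and at none in those of Kcnh1 and Kcnh2, and 66.2% of all windows hold it. No GC box overlapped an E-box in the 6 windows. TATAAA, held by 12.4% of windows, and TGACGTCA, held by 1.55%, were in none of the 6. GC boxes thus stood upstream of genes higher in either tissue. The E-box was held by the windows of Kcnh4, Kcnh5 and Kcnh7 and not by that of Kcnh8, all 4 of which were higher in hippocampus in wild type, and with 6 windows and so common a motif this is a description only. The RefSeq start of Kcnh2 lies 22013 bases inside the gene as GENCODE draws it, so this window belongs to an inner start.

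In GENCODE M21 on GRCm38, every member is a protein coding gene on its own chromosome. Kcnh1 (ENSMUSG00000058248) spans chr1:192190774-192510159 on the plus strand, and Kcnh2 (ENSMUSG00000038319) spans chr5:24319589-24351604 on the minus strand. Kcnh3 (ENSMUSG00000037579) lies at chr15:99224861-99242817 on the plus strand, Kcnh4 (ENSMUSG00000035355) at chr11:100740376-100759942 on the minus strand and Kcnh5 (ENSMUSG00000034402) at chr12:74897220-75177332 on the minus strand. Kcnh7 (ENSMUSG00000059742) lies at chr2:62693414-63184287 on the minus strand and Kcnh8 (ENSMUSG00000035580) at chr17:52602709-52979194 on the plus strand. Counts cover the exons of each gene as a whole, so splice forms are not told apart.

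Libraries held 24932098 to 30504437 counts in the hippocampus and 24355572 to 34971359 in the cerebellum, so that 3 counts, taken as the floor, equal 0.0858 to 0.123 CPM (counts scaled to library size). Summed markers of hippocampal pyramidal neurons lay at 723 to 760.1 CPM in hippocampus and at 61.5 to 72.3 in cerebellum, and those of cerebellar granule neurons at 177 to 223 and 4045 to 4948. By these sums the tissue labels held in all 12 libraries, but they do not show whether neighbouring tissue was carried over. Thalamus and habenula markers summed to 121 CPM in knockout hippocampus library 2 and to 38.6 to 43.9 in the other hippocampus libraries. Their part in the levels below was not tested. In knockout hippocampus Gabra6, a defining granule cell gene, was at 0 in every library, and in cerebellum none of the 7 pyramidal markers was at 0. The column names carry the tag L1 in all hippocampus columns and L4 in all cerebellum columns, which the labels do not explain, so the tissue and whatever the tag stands for cannot be told apart. Syt14 itself was read at 38.1 to 38.9 CPM in wild-type and 28.0 to 30.6 in knockout hippocampus, and at 33.3 to 38.2 and 30.3 to 30.7 in cerebellum. Its groups did not overlap in either tissue, but most of its signal was kept in the libraries labelled knockout. In bulk tissue, fewer cells of a type and less RNA per cell cannot be told apart, and this holds for every level below.

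**Figure D1:**
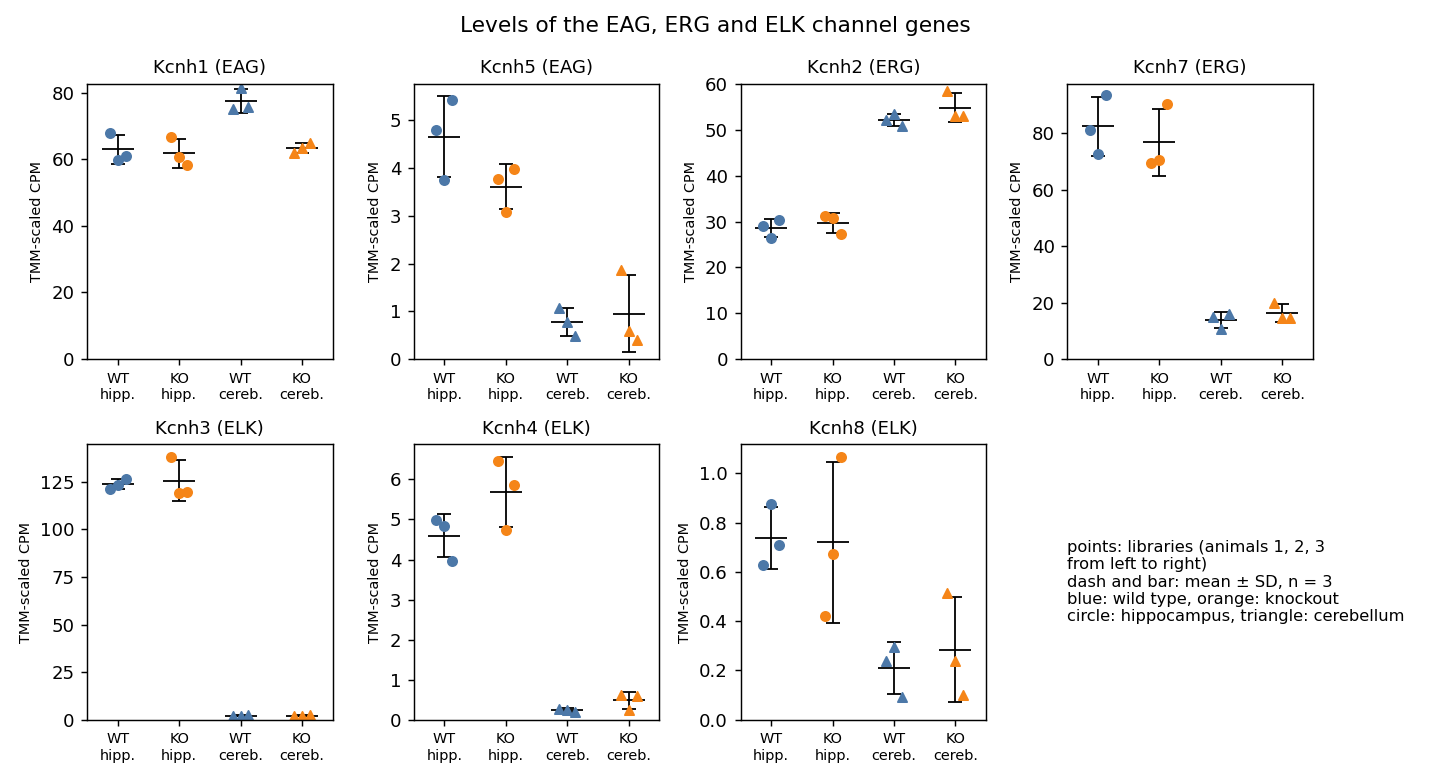
Level of each of the 7 members in CPM scaled by TMM factors (linear axis from 0, its own scale in each panel) in the 12 libraries, 1 point per library and 1 panel per gene, with a dash and bar for the mean ± SD of each tissue and genotype group. Kcnh3 stands at 119 to 138 CPM in hippocampus and 1.94 to 2.36 in cerebellum, while Kcnh1 lies between 58.3 and 81.5 CPM in all libraries.

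Per length of annotated exon (RPKM), Kcnh3 led the family in the hippocampus and Kcnh2 and Kcnh1 shared the lead in the wild-type cerebellum. In wild-type hippocampus the mean level was 21.5 ± 0.461 RPKM (SD, n = 3) for Kcnh3, 8.59 ± 0.604 for Kcnh1, 5.90 ± 0.399 for Kcnh2, 5.41 ± 0.683 for Kcnh7, 1.16 ± 0.138 for Kcnh4, 1.15 ± 0.208 for Kcnh5 and 0.162 ± 0.0274 for Kcnh8. The ranges of Kcnh2 and Kcnh7 overlapped there, as did those of Kcnh4 and Kcnh5, and all other neighbours in this order were apart. In wild-type cerebellum the order was Kcnh2 at 10.8 ± 0.273 RPKM (SD, n = 3), Kcnh1 at 10.6 ± 0.479, Kcnh7 at 0.906 ± 0.183, Kcnh3 at 0.369 ± 0.0321, Kcnh5 at 0.192 ± 0.0718, Kcnh4 at 0.0591 ± 0.0121 and Kcnh8 at 0.0457 ± 0.0232. Kcnh2 and Kcnh1 overlapped in it, and so did Kcnh4 and Kcnh8. In knockout cerebellum Kcnh2 (10.9 to 12.1 RPKM) did not overlap Kcnh1 (8.45 to 8.86 RPKM).

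The summed level of the 7 genes was 43.8 ± 1.53 RPKM (SD, n = 3) in wild-type and 43.9 ± 2.48 in knockout hippocampus, and 22.9 ± 0.571 and 21.9 ± 0.933 in cerebellum. The ELK branch accounted for the gap between tissues: it summed to 22.8 ± 0.342 RPKM in wild-type hippocampus and 0.474 ± 0.0191 in wild-type cerebellum. The ERG members summed to 11.3 ± 1.07 and 11.7 ± 0.108 RPKM in those groups, although within the branch Kcnh2 was higher in cerebellum and Kcnh7 higher in hippocampus. The EAG members summed to 9.74 ± 0.692 and 10.8 ± 0.478 RPKM. Kcnh3 made up 49.0 ± 1.65% of the family's RPKM in wild-type and 49.6 ± 1.52% in knockout hippocampus. Kcnh2 made up 47.0 ± 0.317% in wild-type and 51.8 ± 0.822% in knockout cerebellum, and Kcnh1 46.1 ± 1.03% and 39.7 ± 2.46%. These shares rest on the length given to each gene: with the longest transcript in place of all exons, Kcnh3 came to 58.1% in wild-type hippocampus and Kcnh2 to 49.5% in wild-type cerebellum.

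**Figure D2:**
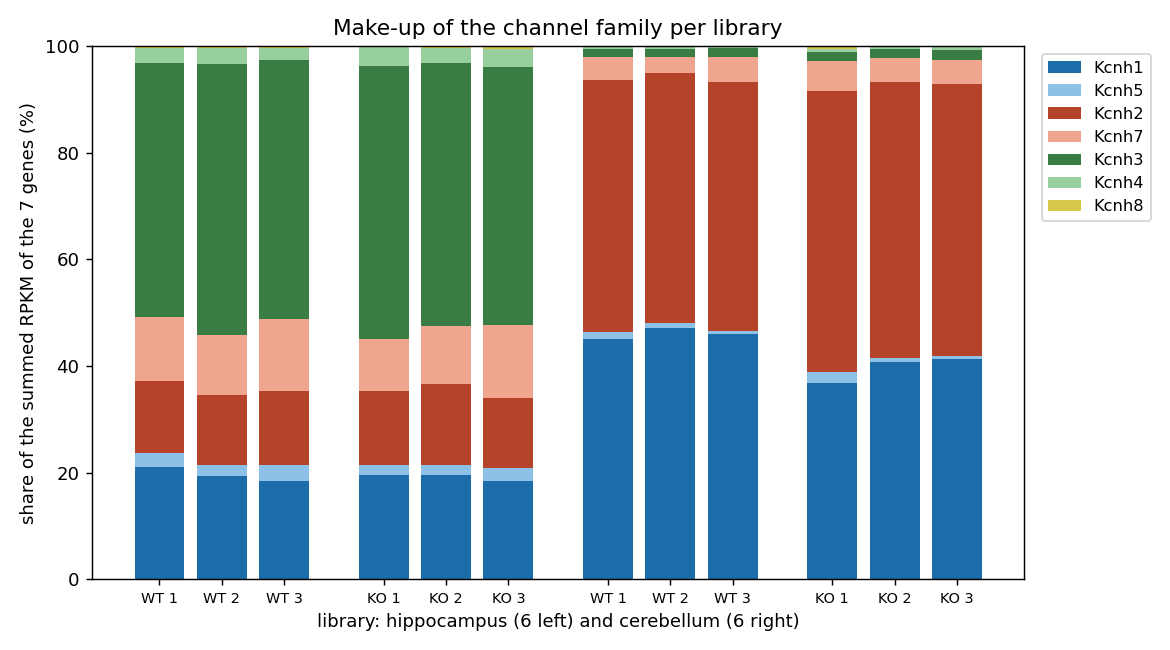
Share of each member in the family's summed RPKM (percent, axis from 0) in each of the 12 libraries, as stacked bars grouped by tissue and genotype. Kcnh3 fills 47.6 to 51.3% of the hippocampus bars and 1.48 to 1.91% of the cerebellum bars, where Kcnh2 and Kcnh1 fill most of the bar.

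Among the EAG channels, Kcnh1 was read strongly in every library and Kcnh5 was low. Kcnh1, whose human variants cause developmental syndromes with seizures, stood at 68.0, 59.8 and 61.1 CPM in wild-type hippocampus (libraries 1 to 3), 66.8, 60.6 and 58.3 in knockout hippocampus, 75.1, 81.5 and 75.8 in wild-type cerebellum and 62.0, 63.5 and 65.0 in knockout cerebellum. The wild-type cerebellum libraries were the highest of the 12 and the other groups overlapped. Kcnh5, the other EAG channel, had 4.80, 3.76 and 5.43 CPM in wild-type and 3.77, 3.08 and 3.99 in knockout hippocampus, with 1.07, 0.780 and 0.486 in wild-type and 1.88, 0.579 and 0.398 in knockout cerebellum. Every hippocampus library lay above every cerebellum library for Kcnh5, and knockout cerebellum library 1 was the highest of the latter.

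The ERG channels ran in opposite directions between the tissues. Kcnh2, the main repolarizing ERG channel of the heart, had 28.9, 26.5 and 30.3 CPM in wild-type and 31.2, 30.7 and 27.3 in knockout hippocampus, and 52.1, 53.6 and 50.9 in wild-type and 58.5, 53.1 and 53.0 in knockout cerebellum. It was the only member higher in cerebellum in all libraries of both genotypes, 1.82-fold in wild type and 1.85-fold in knockout. Kcnh7, a neuronal ERG channel, had 81.0, 72.8 and 93.4 CPM in wild-type and 69.4, 70.5 and 90.3 in knockout hippocampus, and 14.9, 10.6 and 15.9 in wild-type and 19.9, 14.4 and 14.4 in knockout cerebellum. Its hippocampus libraries were all above its cerebellum libraries, with a log2 difference, cerebellum minus hippocampus, of -2.59 ± 0.13 (SE) in wild type and -2.24 ± 0.14 in knockout. Kcnh6, the ERG gene outside the 7, had 2.64 to 3.30 CPM in hippocampus and 0.664 to 2.13 in cerebellum.

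Of the ELK channels, Kcnh3 and Kcnh4 had the widest gaps between the tissues in the family. The gap of Kcnh8 was smaller than those of Kcnh5 and Kcnh7 in both genotypes (log2 difference -1.80 ± 0.45 (SE) in wild type). Kcnh3 had 121, 123 and 126 CPM in wild-type and 138, 119 and 119 in knockout hippocampus, and 1.94, 2.13 and 2.31 in wild-type and 2.06, 2.21 and 2.36 in knockout cerebellum. The cerebellum level was 57.9-fold lower in wild type and 56.3-fold lower in knockout, the widest gap in the family. Camk2a, a kinase of forebrain excitatory neurons, stood at 4120 CPM in wild-type hippocampus and 97.6 in wild-type cerebellum (log2 difference -5.40 ± 0.07, beside -5.85 ± 0.07 for Kcnh3).

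Kcnh4 had 4.99, 4.82 and 3.97 CPM in wild-type and 6.46, 4.74 and 5.85 in knockout hippocampus. In cerebellum it was read by 7, 9 and 6 counts in wild type and 17, 7 and 18 in knockout, 0.182 to 0.626 CPM. Its hippocampus level was 19.6-fold higher in wild type and 11.6-fold higher in knockout, folds that rest on these few cerebellum counts. Kcnh8 was the scarcest member, with 10 to 31 counts per hippocampus library and 3 to 14 per cerebellum library. Its wild-type libraries did not overlap between tissues (0.629 to 0.874 CPM in hippocampus, 0.0911 to 0.296 in cerebellum), but its knockout libraries did (0.419 to 1.07 and 0.0996 to 0.515 CPM).

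Counted over the family in wild type, 2 members were higher and 5 lower in cerebellum at an adjusted p under 0.05 (edgeR quasi-likelihood test), and all 7 had ranges apart. Of all 18128 genes tested, 66.1% passed in either direction, 33.0% higher and 33.1% lower, and 70.7% had ranges apart, so a passed test was the common case for any gene here. In knockout, 1 member was higher and 4 lower, where 64.1% of 18200 genes passed, 32.5% higher and 31.6% lower, and 5 members had ranges apart beside 70.3% of all genes. Kcnh2 was the 1 member higher there, and Kcnh1 and Kcnh8 were the 2 that did not pass. In both genotypes Kcnh4 and Kcnh8 passed the count filter of these fits only through their hippocampus libraries. The filter thus favoured a lower call for them, and their calls are no result about the family. The median log2 difference, cerebellum minus hippocampus, was -2.59 over the 7 members and 0.02 over all genes in wild type, and -1.94 and 0.03 in knockout. Within single animals the difference of Kcnh1 on the log2(CPM + 0.5) scale was 0.14, 0.44 and 0.31 in wild type and -0.11, 0.07 and 0.15 in knockout. Its wild-type and knockout values overlapped narrowly, while Kcnh2 was positive in all 6 animals (0.74 to 1.0) and Kcnh3 negative in all 6 (-5.75 to -5.39).

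**Figure D3:**
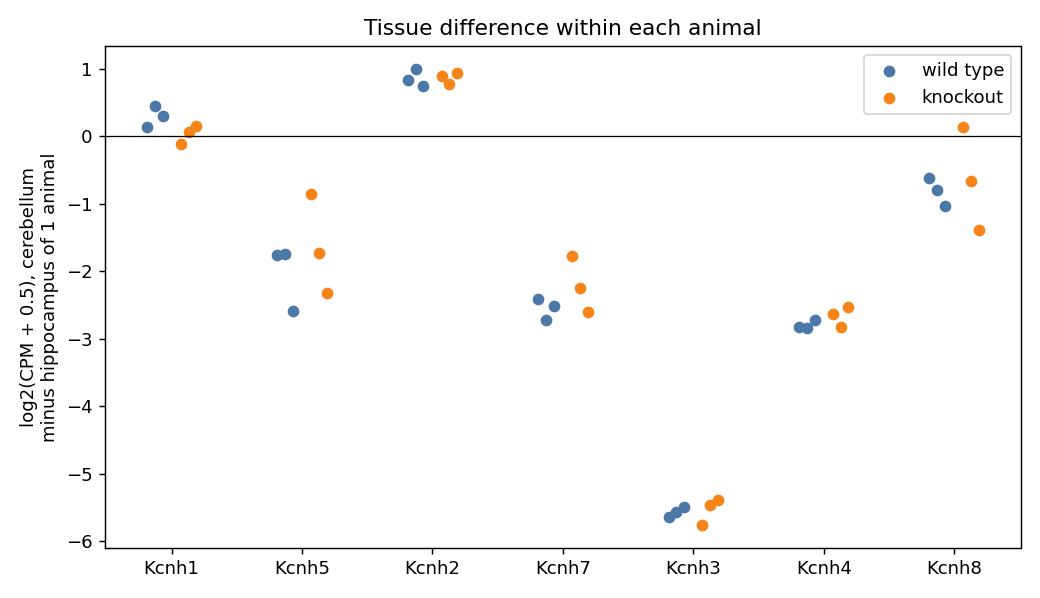
Difference between cerebellum and hippocampus within each animal, log2(CPM + 0.5), for the 7 members, with 1 point per animal coloured by genotype and a line at 0. Kcnh2 lies above 0 in all 6 animals, Kcnh1 near 0 and Kcnh3 near -5.5. The added 0.5 CPM shrinks the differences of members that are low in cerebellum, such as Kcnh4 and Kcnh8.

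Between genotypes, no member passed the test in either tissue. In hippocampus 0 of 7 members had an adjusted p under 0.05, nor did any of the 17693 genes tested (0.0%); 767 of those genes and 0 members had an unadjusted p under 0.05, and DESeq2 called 4 genes, none a member. The knockout minus wild-type log2 difference there was -0.02 ± 0.07 (SE) for Kcnh1, 0.06 ± 0.08 for Kcnh2, 0.02 ± 0.06 for Kcnh3, 0.30 ± 0.16 for Kcnh4, -0.36 ± 0.18 for Kcnh5, -0.10 ± 0.10 for Kcnh7 and -0.02 ± 0.40 for Kcnh8, with edgeR adjusted p from 0.995 to 0.998. Ranges overlapped for all 7, while 9.81% of all genes had ranges apart, 5.13% higher and 4.68% lower in knockout. The well-counted Kcnh1, Kcnh2 and Kcnh3 had an SE of 0.06 to 0.08, whereas that of Kcnh8 spans several such differences.

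In cerebellum 5 members had enough counts to be tested and Kcnh4 and Kcnh8 did not. None of the 5 was called, against 2 of all 17733 genes (0.0113%), and 1 of them, Kcnh1, had an unadjusted p under 0.05, as did 1200 genes. With the replicate number as a block the fit called 36 genes in place of 2, again with no member among them (adjusted p of Kcnh1 = 0.0538). The log2 difference was 0.07 ± 0.06 (SE) for Kcnh2, 0.05 ± 0.17 for Kcnh3, 0.29 ± 0.53 for Kcnh5 and 0.24 ± 0.16 for Kcnh7, with edgeR adjusted p from 0.823 to 0.972. Knockout cerebellum library 1 was the highest of the 6 cerebellum libraries for 5 members (Kcnh2, Kcnh4, Kcnh5, Kcnh7 and Kcnh8) and the lowest for Kcnh1. Without it the value for Kcnh5 was -0.65 in place of 0.29 and that for Kcnh7 was 0.07 in place of 0.24, and without wild-type library 2 that for Kcnh7 was 0.08. The pyramidal marker sum of that library was 72.3 CPM and the dentate granule sum 135, both above the other cerebellum libraries, and their part in these levels was not tested.

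**Figure D4:**
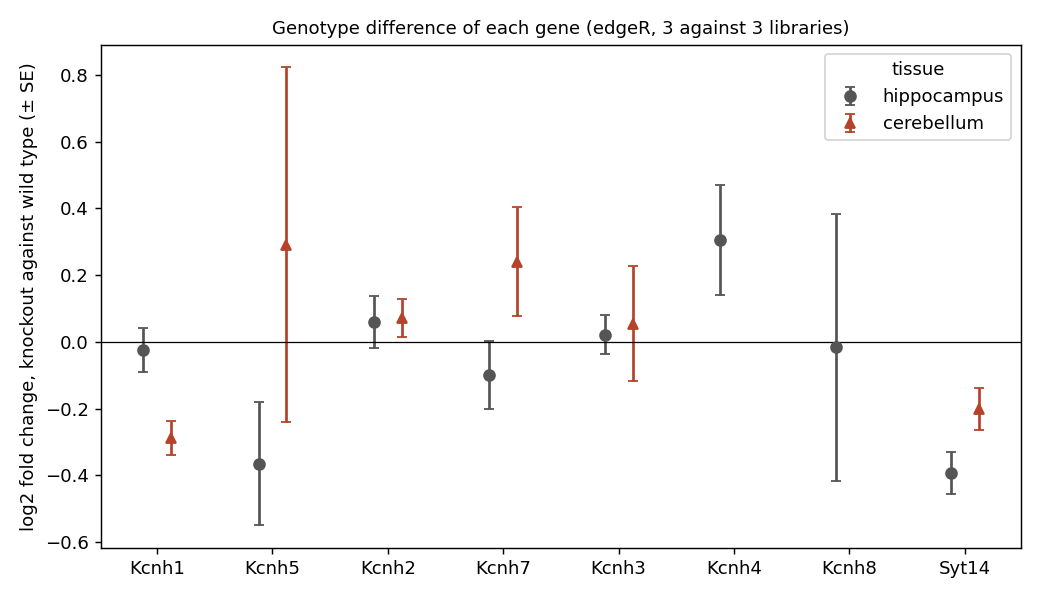
Knockout minus wild-type log2 fold change with its SE (edgeR) for each member and Syt14 in hippocampus and cerebellum, 3 animals per group, with a line at 0; Kcnh4 and Kcnh8 were not tested in cerebellum. Of the members, Kcnh1 in cerebellum is the point farthest from 0 in units of its SE, at -0.29 ± 0.05.

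Kcnh1 was lower in knockout cerebellum in all 3 libraries, at 63.5 ± 1.51 CPM (SD, n = 3) against 77.5 ± 3.51 in wild type. This is 81.9% of the wild-type level, a log2 difference of -0.29 ± 0.05 (SE), with an unadjusted p of 1.949e-04 that ranked 12 among 17733 genes and an edgeR adjusted p of 0.269, so it did not pass. The ranges were apart, as they were for 11.9% of all genes tested, 5.4% lower and 6.47% higher. DESeq2 gave an adjusted p of 0.00707 and edgeR without a filter on low counts 1.229e-04, both past the threshold, while over all alternatives the adjusted p ran from 1.229e-04 to 0.998 and the log2 difference, with each library left out in turn, from -0.31 to -0.25. In hippocampus the difference was -0.02 ± 0.07 with overlapping ranges. The difference of the genotype effects between the tissues was -0.26 ± 0.09 for Kcnh1, with an unadjusted p of 0.00897 and an edgeR adjusted p of 0.892. No member passed that test, and 2 of 19027 genes did (0.0105%), so a difference between the tissues is not shown. In it Kcnh2, Kcnh3, Kcnh5 and Kcnh7, the other members with enough counts in cerebellum, had values of 0.01 ± 0.10, 0.03 ± 0.14, 0.66 ± 0.57 and 0.34 ± 0.22. Kcnh4 and Kcnh8 entered that fit through their hippocampus counts, and their values rest on cerebellum counts too low to compare.

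Some cell type markers were also apart between the genotypes in cerebellum. Oligodendrocyte markers summed to 5212 to 5598 CPM in wild type and 5706 to 6318 in knockout, with 6 of 6 above 0 in log2 difference. Precursor markers of that lineage summed to 164.9 to 174.8 and 183.2 to 195.7 CPM, with 6 of 6 above 0, and microglial markers to 78.6 to 83.4 and 91.7 to 95.2 CPM, with 5 of 6 above 0. Granule neuron markers overlapped between genotypes (4392 to 4851 CPM in wild type, 4045 to 4948 in knockout, 3 of 7 above 0), and none of these 4 lists had a marker at 0 in cerebellum. Brainstem markers summed to 53.1 to 59.5 CPM in wild type and 51.5 to 87.0 in knockout (4 of 5 tested above 0, median log2 difference 2.68). Choroid plexus markers summed to 1051 to 2663 and 26.6 to 1776 CPM (0 of 7 above 0, median -1.12). The part of any of these lists in the level of Kcnh1 was not tested.

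Kcnh1 is also a neighbour of the altered gene. Syt14 lies at chr1:192891233-193035775 on the minus strand, with a gap of 381 kb between the genes and their start sites 0.845 Mb apart. Syt14 showed a log2 difference of -0.39 ± 0.06 (SE) in hippocampus and -0.20 ± 0.06 in cerebellum (edgeR adjusted p 0.686 and 0.644), and the difference between those values was 0.19 ± 0.09 (edgeR adjusted p 0.919). Of 8 genes annotated between them, Sertad4, which encodes a SERTA domain protein, had 23.2 ± 1.33 CPM in wild-type and 18.2 ± 1.88 in knockout hippocampus, a log2 difference of -0.35 ± 0.09 (edgeR adjusted p 0.995), and 0.09 ± 0.10 in cerebellum. Hhat, which encodes the acyltransferase of Hedgehog ligands, stayed at or below 1.60 CPM and differed by 0.23 ± 0.41 in hippocampus and 0.13 ± 0.24 in cerebellum. Hhat runs antisense to Kcnh1 and overlaps it over 13449 bases. The sources do not say whether strand was used in counting, so how reads in the overlap were assigned or dropped is not known. The other 6 genes did not exceed 1.42 CPM in any library. On the outer sides the nearest tested genes were Gm10516 (-0.34 ± 0.15 in hippocampus, -0.12 ± 0.12 in cerebellum) beyond Kcnh1 and Diexf (-0.17 ± 0.08 and 0.04 ± 0.07) beyond Syt14.

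Within 2 Mb of Syt14, 49 other genes were tested in hippocampus and 45 in cerebellum. In each tissue 4 had an unadjusted p under 0.05 (all genes: 767 of 17693 and 1200 of 17733). Those in hippocampus were Sertad4, Gm10516 and Diexf, below 0, and A330023F24Rik, above 0 (0.26 ± 0.07). Those in cerebellum were Kcnh1 and Hsd11b1 (-0.20 ± 0.06), below 0, and Nek2 (0.45 ± 0.10) and Nenf (0.18 ± 0.07), above 0. Values below 0 were found for 24 of the 49 and 24 of the 45. Their median log2 difference was 0.01 in hippocampus and -0.0033 in cerebellum, beside 0.0017 and 0.0025 over all genes tested. Over the whole window the genes lay on either side of 0. Of Kcnh1 and the tested genes named around it and Syt14, Kcnh1 (-0.02 ± 0.07), Sertad4, Gm10516 and Diexf were below 0 in hippocampus and Hhat above 0. In cerebellum Kcnh1 and Gm10516 were below 0 and Hhat, Sertad4 and Diexf above 0. None of these had an adjusted p under 0.05 in the edgeR test.

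**Figure D5:**
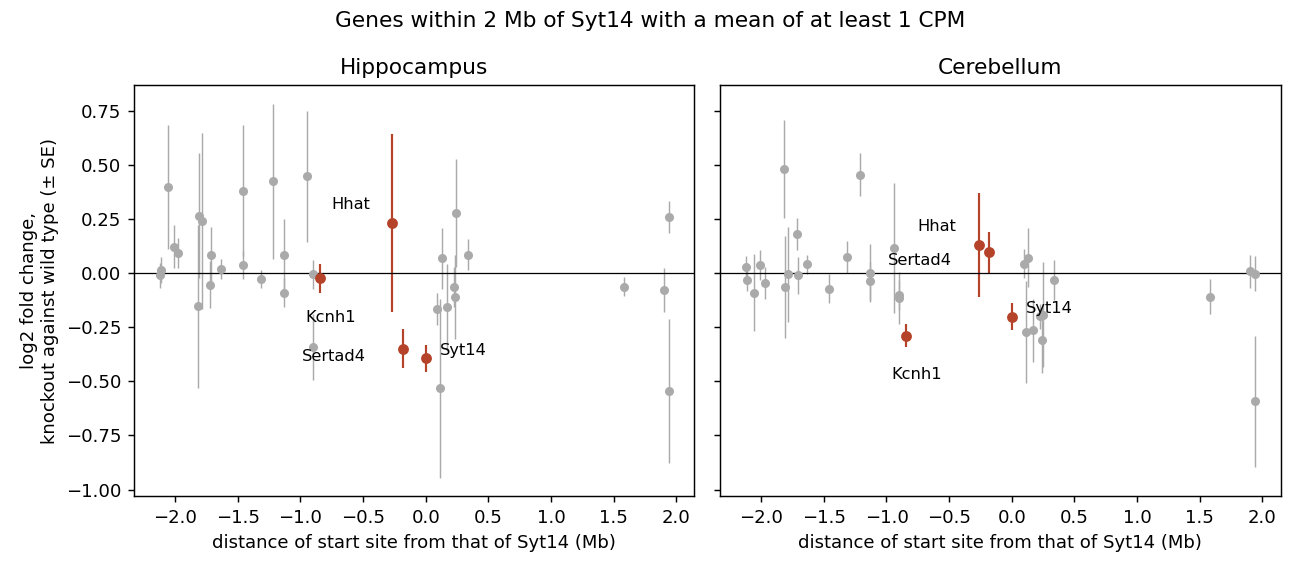
Knockout minus wild-type log2 fold change with its SE (edgeR) against the distance of each gene's start site from that of Syt14 (Mb), for genes whose nearer end lies within 2 Mb and whose mean is at least 1 CPM, 36 in hippocampus and 35 in cerebellum. Kcnh1 sits near 0 in hippocampus and at -0.29 in cerebellum, and Syt14 below 0 in both.

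Other voltage-gated potassium channel subunits gave the setting for the family. Of 32 listed, 29 were tested in hippocampus and 28 in cerebellum, 6 and 7 had an unadjusted p under 0.05 for genotype (beside 767 of 17693 and 1200 of 17733 among all genes), and 0 passed the adjusted threshold in either tissue. Kcna4, an A-type channel, had 2.32 ± 0.0842 CPM (SD, n = 3) in wild-type and 4.10 ± 0.961 in knockout cerebellum (log2 difference 0.82 ± 0.19, edgeR adjusted p 0.515). Kcnq5, a subunit of the muscarine-sensitive M-current, had 2.23 ± 0.579 and 4.09 ± 1.41 CPM there (0.88 ± 0.27, edgeR adjusted p 0.644), and 114 ± 2.21 and 98.4 ± 13.5 CPM in hippocampus (-0.21 ± 0.08, edgeR adjusted p 0.995). Kcnc1, which lets cerebellar neurons fire fast, had 911 ± 23.6 and 787 ± 72.2 CPM in cerebellum (-0.21 ± 0.07, edgeR adjusted p 0.644). In hippocampus Kcna3 differed by -0.33 ± 0.13 and Kcns1 by -0.26 ± 0.10, both with an edgeR adjusted p of 0.995. For the difference between tissues Kcnq3, the partner of Kcnq5 in M-channels, had a value of 0.35 ± 0.11 (edgeR adjusted p 0.808).

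Between tissues 19 of 30 of these subunits were lower and 9 higher in cerebellum in wild type, with a median log2 difference of -1.44, beside 33.1% lower and 33.0% higher and a median of 0.02 over all genes. In knockout the counts were again 19 and 9 of 30, with a median of -1.51, beside 31.6% and 32.5% and a median of 0.03. The 4 largest changes in wild type were those of Kcnv1, Kcng1, Kcnf1 and Kcnq5, of which all but Kcnq5 are silent subunits that conduct only together with others. Kcnv1 had 55.5 CPM in wild-type hippocampus and 0.117 in wild-type cerebellum, Kcng1 55.9 and 0.302, Kcnf1 89.1 and 1.34, and Kcnq5 114 and 2.23. In knockout Kcng2, also a silent subunit, took the place of Kcnq5 and had 34.4 CPM in hippocampus and 1.11 in cerebellum. In wild type Kcnv1 and Kcng1 passed the count filter only through their hippocampus libraries. The filter thus favoured a lower call for such genes, and the counts of this list are a description only.

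Among channels with a related cyclic nucleotide binding domain, of 10 listed, 6 were tested in hippocampus and 5 in cerebellum and 0 passed for genotype. Between tissues 2 were higher and 2 lower in cerebellum, of 5 tested in wild type and of 6 in knockout. Over all genes 66.1% passed in wild type and 64.1% in knockout, so a passed test was the common case. Hcn4, a pacemaker channel, had 3.06 ± 0.167 CPM (SD, n = 3) in wild-type hippocampus and 8.88 ± 0.845 in wild-type cerebellum, and Hcn2 149 ± 5.43 and 193 ± 4.48. Hcn3 went the other way, with 15.3 ± 0.432 and 12.05 ± 0.922 CPM.

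Partners and trafficking factors of EAG and ERG channels include calmodulin, Kcne subunits, chaperones, ubiquitin ligases and CaM kinase. Of 28 listed, 24 were tested in hippocampus and 25 in cerebellum, and 0 passed for genotype in either. The smallest unadjusted p belonged in hippocampus to Cav1, the coat protein of caveolae (-0.33 ± 0.12, edgeR adjusted p 0.995), and in cerebellum to Nedd4l, a ubiquitin ligase of ion channels (-0.14 ± 0.05, edgeR adjusted p 0.701). Endothelium and pericyte markers were also lower in knockout hippocampus, and their part in the level of Cav1 was not tested. Between tissues 4 were higher and 17 lower of 25 in wild-type cerebellum, and 2 and 17 of 24 in knockout, with medians of -0.32 and -0.30 beside the same shares and medians over all genes. Kcne2, an accessory subunit of ERG channels that is also abundant in choroid plexus, had 0.245 ± 0.145 CPM in wild-type hippocampus, 20.3 ± 8.49 in wild-type cerebellum and 8.37 ± 8.99 in knockout cerebellum. Choroid plexus markers ranged as widely in those libraries, summing to 1051 to 2663 CPM in wild-type and 26.6 to 1776 in knockout cerebellum, and their part in the level of Kcne2 was not tested. In wild type Kcne2 passed the count filter only through its cerebellum libraries, so the filter favoured its higher call.

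The genes most like each member over the 12 libraries were found by the root mean square difference of centred log2(CPM + 0.5) among 13794 protein coding genes. C2cd3 (0.0673) and Tacc2 (0.0774) were nearest to Kcnh1. C2cd3 had 42.8 CPM in wild-type and 38.0 in knockout cerebellum, beside 35.6 and 35.0 in hippocampus. Phactr4 (0.0669) and Dph3 (0.0735) were nearest to Kcnh2, and Camk2a (0.149) was among the nearest to Kcnh3. For Kcnh7 the nearest were AI593442 (0.148) and St6gal2 (0.157), for Kcnh4 Mn1 (0.173) and Susd1 (0.182), and for Kcnh5 Kcnb2 (0.261), itself a delayed rectifier potassium channel, and Cage1 (0.275). For Kcnh8 they were Mmgt2 (0.162) and Hrasls (0.174), where the added 0.5 CPM flattens the differences of so low a gene. It also flattens those of Kcnh4, low in cerebellum. On this scale its wild-type tissue difference was -2.84 to -2.71 within animals, beside -4.29 in edgeR. The 12 points share animals and tissues, so these distances mostly follow the tissue difference.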

How the data were processed

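Counts per gene were deposited by the authors as 1 table per tissue. Per the submitters' processing notes the tools were Trimmomatic 0.39, STAR 2.7.10 and featureCounts 2.0.3 and the builds mm10 and GRCm38; per the labels' protocols, poly(A) libraries were strand-specific by dUTP. The sources name neither the annotation counted nor whether strand was used. Column totals differ and all values are whole, and 54409 of 54446 identifiers matched GENCODE M21. Replicates are separate animals by the animal numbers of the labels, and libraries of the same group differed beyond sampling noise (chi-square per gene 4.11 to 12.7).

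Tests used edgeR 4.0.16 in R 4.3.3: TMM factors, filterByExpr with its count minimum of 10 and total minimum of 15, and the two-sided quasi-likelihood test. A call is a Benjamini-Hochberg adjusted p below 0.05 over all genes tested. The SE is the size of the log2 change over the square root of F. Each contrast was fitted on its own 6 libraries, and the difference of genotype effects on all 12. Biological variation (common coefficient) came to 7.54% in hippocampus and 8.23% in cerebellum. Levels are CPM scaled by TMM factors over 12 libraries, and RPKM divides these by the union of annotated exons. Intervals and floors cover counting error only where counts are given alone. Alternatives were DESeq2 1.42.0, limma-voom (limma 3.58.1), RLE factors, no filter, a replicate or animal block, all 12 libraries in 1 fit, plain CPM, longest transcript lengths and each library left out. The fits were tested on simulated data with the same variation for every gene. Of 50 genes planted at 1.25-fold, 18 were recovered in hippocampus, 15 in cerebellum and 2 for the difference between tissues. At 1.5-fold these were 43, 46 and 35 of 50. Small changes can thus be missed. Other software was numpy 2.4.6, pandas 2.3.3, matplotlib 3.10.9 and Python 3.11.15.

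Tissues of the same animal pair by design (correlation of deviations 0.0479 to 0.163 in wild type and 0.0400 to 0.0530 in knockout). Tissues of different animals gave -0.110 to 0.0211 and -0.0483 to 0.0136. Knockout and wild-type libraries of the same number are different animals, but in cerebellum they deviated together (0.160 to 0.336 in 3 pairs), which did not hold in hippocampus (-0.0138 to 0.134). Pairs of different number gave -0.336 to 0.0918 in cerebellum and -0.0913 to 0.0812 in hippocampus. Deviations are centred over the 3 libraries of a group, so these pairs are not independent of each other.

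The members and lists were chosen with earlier results of these data known. The text names every member, Kcnh6, Syt14, the genes between Syt14 and Kcnh1 and the nearest tested gene on each side. From each list it names up to 4 genes past the threshold with the largest change and at least 1 CPM, or up to 3 with the smallest unadjusted p, though not each is printed, and per member up to 2 most alike protein coding genes. Camk2a beside Kcnh3 comes from these lists. Values of some genes that this rule names are not reported here.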

Additional observations from a re-analysis of the deposited data

How the results depend on the processing

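Counts of called genes for genotype depended on the tool and the filter. In hippocampus, where the count was 0, DESeq2 called 4, edgeR without a filter 77 and edgeR with the replicate block 2, and leaving out 1 library gave 0 to 2 (2 without knockout library 3). In cerebellum the count of 2 became 38 with DESeq2, 417 without a filter, 36 with the replicate block (20 higher, 16 lower) and 4 in 1 fit of all 12 libraries, and leaving out 1 library gave 2 to 33 (33 without knockout library 3, 4 without wild-type library 3). For the difference between tissues the count of 2 became 11 with DESeq2 and 275 without a filter, and 2 to 44 with 1 library left out (44 without knockout cerebellum library 3, 4 without wild-type hippocampus library 1). The cause was not tested. The tissue counts stayed within 1.5 times of the reported ones under every alternative. Shares by longest transcript were 58.1% (wild type) and 58.7% (knockout) for Kcnh3 in hippocampus and 49.5% and 54.1% for Kcnh2 in cerebellum.

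Of 417 alternatives to 33 single-gene results for the members, 392 kept direction and call. The replicate block changed no member's call. Kcnh1 in cerebellum passed with DESeq2 and without a filter, and Kcnh8 in knockout, lower in cerebellum, passed with limma-voom, without a filter, and without knockout library 1 of either tissue. Direction turned in 19, all with 1 library left out: in hippocampus Kcnh1 ranged from -0.083 to 0.032, Kcnh3 from -0.053 to 0.055 and Kcnh8 from -0.42 to 0.24; in cerebellum Kcnh3 from -0.0047 to 0.12 and Kcnh5 from -0.65 to 0.67; in the difference between tissues Kcnh2 from -0.043 to 0.068, Kcnh3 from -0.017 to 0.11, Kcnh5 from -0.27 to 1.04 and Kcnh8 from -0.28 to 0.85; and in the knockout tissue difference Kcnh1 from -0.012 to 0.095. Low counts limit Kcnh4 and Kcnh8, whose genotypes were not compared in cerebellum.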
